A study of Mus musculus with 28 samples.

Results

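The mitochondrially encoded RNAs outside complex I were described in RNA that came down with PKR, the kinase activated by double-stranded RNA, from mouse embryonic fibroblasts. Members were the features annotated on the mitochondrial chromosome (chrM) that are not mt-Nd genes, which gave 30 of the 30210 features in the tables and 30 of the 37 on chrM. They were 22 transfer RNAs (tRNAs), 14 of them encoded on the plus strand and 8 on the minus strand, the ribosomal RNAs (rRNAs) mt-Rnr1 and mt-Rnr2, and 6 messenger RNAs (mRNAs). The mRNAs were mt-Cytb, which encodes the mitochondrial subunit of complex III, mt-Co1, mt-Co2 and mt-Co3, which encode the catalytic core of complex IV (cytochrome c oxidase), and mt-Atp6 and mt-Atp8, which encode subunits of complex V (ATP synthase). Both rRNAs and all 6 mRNAs lie on the plus strand.

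The mitochondrial genome is a small circle transcribed from both strands into long polycistronic RNAs. The tRNAs lie between the other genes and are cut out by dedicated endonucleases, which frees the neighbouring mRNAs and rRNAs. Most genes are sense on one of the long transcripts, so much of the other is antisense to genes and is normally degraded quickly. RNA from both strands can pair, and mitochondria are a known source of the double-stranded RNA that PKR binds.

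Per the labels, the fibroblasts had been given back either PKR with a mutation in each double-stranded RNA-binding motif (RM) or wild-type PKR (WT), and received 0.1 mM palmitic acid or mock treatment. The 4 groups are written RM palmitate, RM mock, WT palmitate and WT mock. Palmitic acid is a saturated fatty acid used to stress cells metabolically. PKR was immunoprecipitated from lysate, and its RNA was fragmented before small RNA library preparation. Each group has 3 libraries in dataset A and 3 in dataset B, which the submitters call biological replicates, and a single library in dataset C, where reads were counted by strand. The 2hr in the column names of B is not explained in the labels. Whether each genotype was 1 cell line or clone is not given in the sources used here.

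Sequences of 8 tRNAs are shown because the differences described below separate them. They run 5′ to 3′ in the sense of the tRNA gene, with the anticodon in capitals, and come from the GENCODE M21 transcript sequences (GRCm38). In the GENCODE M21 annotation all 37 chrM features have the same positions as in the files (mm9). mt-Tv and mt-Tl1 flank mt-Rnr2, the large rRNA, and did not pass the test between RM and WT in dataset A. mt-Ti, mt-Tt, mt-Ts1 and mt-Tp were among the members that differed most there. mt-Tq was lower with RM in datasets A and B, and mt-Ta had mostly antisense reads with WT in dataset C. The first 4 are encoded on the plus strand and the others on the minus strand.
mt-Tv, valine, chrM:1025-1093: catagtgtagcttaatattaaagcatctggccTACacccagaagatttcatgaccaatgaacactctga
mt-Tl1, leucine, chrM:2676-2750: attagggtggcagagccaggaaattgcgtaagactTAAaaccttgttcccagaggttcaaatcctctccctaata
mt-Ti, isoleucine, chrM:3706-3774: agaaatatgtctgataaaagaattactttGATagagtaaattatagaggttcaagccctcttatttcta
mt-Tt, threonine, chrM:15289-15355: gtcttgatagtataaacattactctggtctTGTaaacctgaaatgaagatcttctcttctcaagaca
mt-Tq, glutamine, chrM:3772-3842: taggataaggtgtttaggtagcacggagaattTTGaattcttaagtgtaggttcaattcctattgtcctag
mt-Ta, alanine, chrM:5018-5086: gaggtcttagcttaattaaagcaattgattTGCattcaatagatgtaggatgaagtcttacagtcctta
mt-Ts1, serine, chrM:6870-6938: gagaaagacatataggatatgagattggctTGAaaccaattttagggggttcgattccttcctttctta
mt-Tp, proline, chrM:15356-15422: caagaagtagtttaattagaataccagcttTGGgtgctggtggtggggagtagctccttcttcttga
The 8 genes are 67 to 75 bases long. mt-Ti shares 2 bases with mt-Nd1 and 3 with mt-Tq on the other strand, and mt-Ts1 shares 3 with mt-Co1 on the other strand. Whether the authors' counts in datasets A and B used strand is not given in the sources used here, so reads of a gene and reads antisense to it cannot be told apart in those datasets.

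Libraries held 254762 to 8036622 counts in dataset A, 2204502 to 7122087 in B and 7462653 to 11658726 in C. The shallowest was RM palmitate replicate 2 of A. RM palmitate replicates 2 and 3 of B stood apart, with TMM scaling factors of 0.82 and 0.637 against 1.001 to 1.14 in the other libraries of B. All 9 fibroblast markers averaged at least 1 CPM (counts per 1e6 library counts), with sums of 7157 to 13630 CPM over the libraries of A and 9108 to 25270 CPM over those of B. Sums of macrophage or lymphocyte, epithelial and endothelial markers stayed at or below 3.72 CPM. Of these, 1 macrophage or lymphocyte marker and 1 endothelial marker averaged at least 1 CPM in B, and none did in A. These marker values were scaled by total counts, and the other CPM of A and B are TMM-scaled. No input or control pulldown is among the samples analysed here, so the amount of an RNA in the cells, its binding to PKR and background cannot be told apart.

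In dataset A the members' share of raw counts had overlapping ranges in the 4 groups, while its makeup differed by genotype. Members took 1.54% ± 0.611 of counts in RM palmitate, 1.29% ± 0.484 in RM mock, 1.51% ± 0.415 in WT palmitate and 1.62% ± 0.427 in WT mock (SD, n = 3 each). With TMM scaling the members summed to 9612 to 18023 CPM in RM palmitate, against 12945 to 20630.0 CPM in WT palmitate, and to 9946 to 13274 CPM in RM mock, against 14086 to 19468 CPM in WT mock, and the mock groups did not overlap. Within the members, rRNA made up 85.2% ± 3.17 in RM palmitate and 86.8% ± 0.565 in RM mock, against 68.6% ± 6.69 in WT palmitate and 68.1% ± 3.63 in WT mock. Minus-strand tRNAs made up 1.83% ± 1.34 of member counts in RM palmitate and 1.42% ± 0.563 in RM mock, against 4.97% ± 1.06 in WT palmitate and 5.77% ± 1.41 in WT mock. The mRNAs made up 7.40% ± 2.03 and 7.30% ± 1.79 in the RM groups, with palmitate and mock, against 17.7% ± 4.90 and 17.6% ± 1.40 in the WT groups.

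In dataset B the members took a larger share of the RM palmitate libraries than of any other group. It was 4.39, 7.62 and 10.8% in RM palmitate and 1.31, 2.39 and 3.33% in RM mock, against 0.885, 1.41 and 1.36% in WT palmitate and 1.42, 0.862 and 0.926% in WT mock. RM palmitate overlapped no other group, while 1 RM mock library lay within the range of the WT libraries. Most of the members' counts in B were rRNA, 95.9% ± 0.358 in RM palmitate and 95.4% ± 0.659 in RM mock, against 92.3% ± 0.384 in WT palmitate and 89.6% ± 4.40 in WT mock. Minus-strand tRNAs made up 0.129% ± 0.0187 in RM palmitate and 0.220% ± 0.0788 in RM mock, against 1.02% ± 0.0744 in WT palmitate and 1.01% ± 0.175 in WT mock. The mRNAs made up 2.07% ± 0.130 in RM palmitate and 2.75% ± 0.266 in RM mock, against 4.36% ± 0.304 in WT palmitate and 5.72% ± 2.60 in WT mock. In both datasets, then, RM and WT libraries did not overlap in the shares of member counts that were minus-strand tRNA, rRNA or mRNA. Shares of plus-strand tRNA overlapped. The classes are parts of 1 total, so their shares do not move independently.

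**Figure D1:**
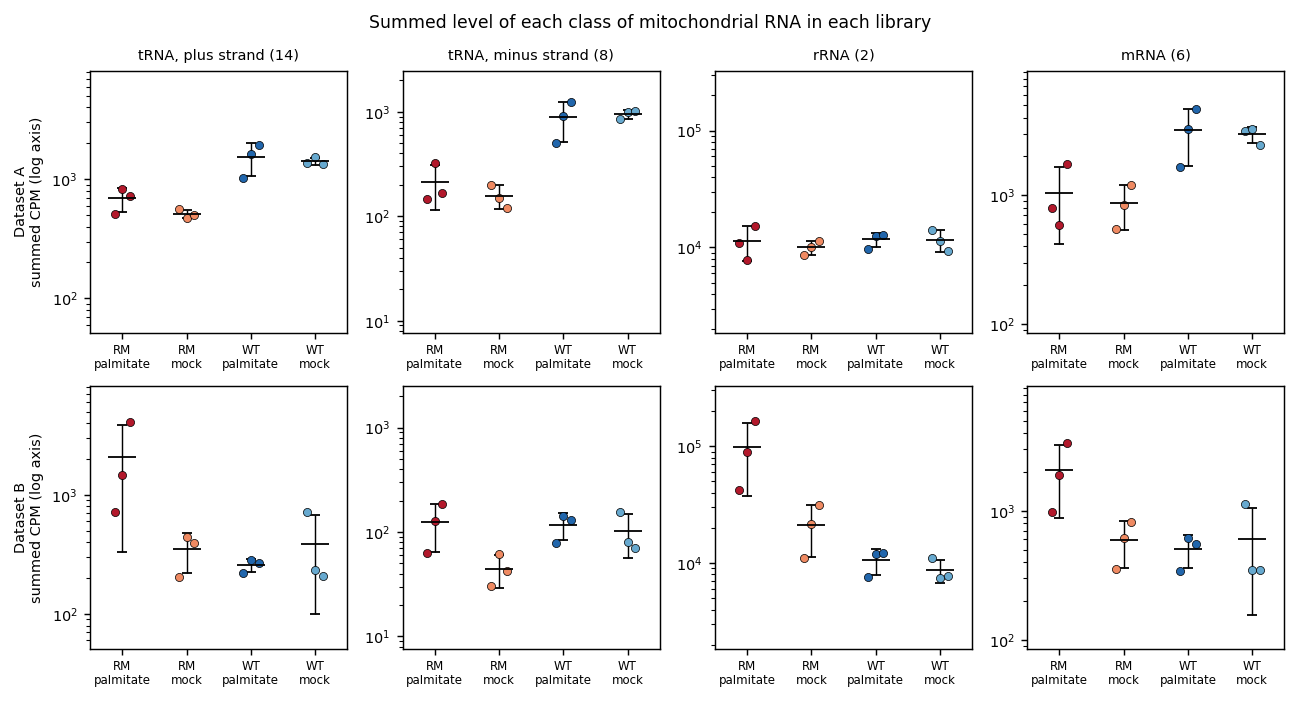
Summed TMM-scaled CPM (log axis) of the plus-strand tRNAs, minus-strand tRNAs, rRNAs and mRNAs in each library of dataset A (top) and B (bottom). Points are libraries, bars are means and whiskers SD (n = 3). In A the tRNA sums of RM libraries lie below all WT libraries, and in B the rRNA sums of RM palmitate, 42230 to 162830 CPM, lie above every other group.

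Levels per kilobase showed which members dominated. In WT mock of dataset A, mt-Tq had the highest mean, 5629 ± 438 CPM per kb (SD, n = 3). Next came mt-Rnr2 with 4636 ± 1023, whose range overlaps that of mt-Tq, mt-Rnr1 with 4431, mt-Ti with 4332 and mt-Th with 4032. In RM mock of A, mt-Rnr2 had 4270 CPM per kb and mt-Rnr1 had 3437 ± 1199 (SD, n = 3), whose ranges overlap, and mt-Tq had 867 and mt-Ti 86.9. In all 4 groups of B, mt-Rnr1 and mt-Rnr2 came first and mt-Tv, the valine tRNA between them, came next. mt-Td, the aspartate tRNA, was near the limit of detection in both datasets, with 0 to 9 counts in a library of A and 0 to 3 in a library of B, and was not tested.

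**Figure D2:**
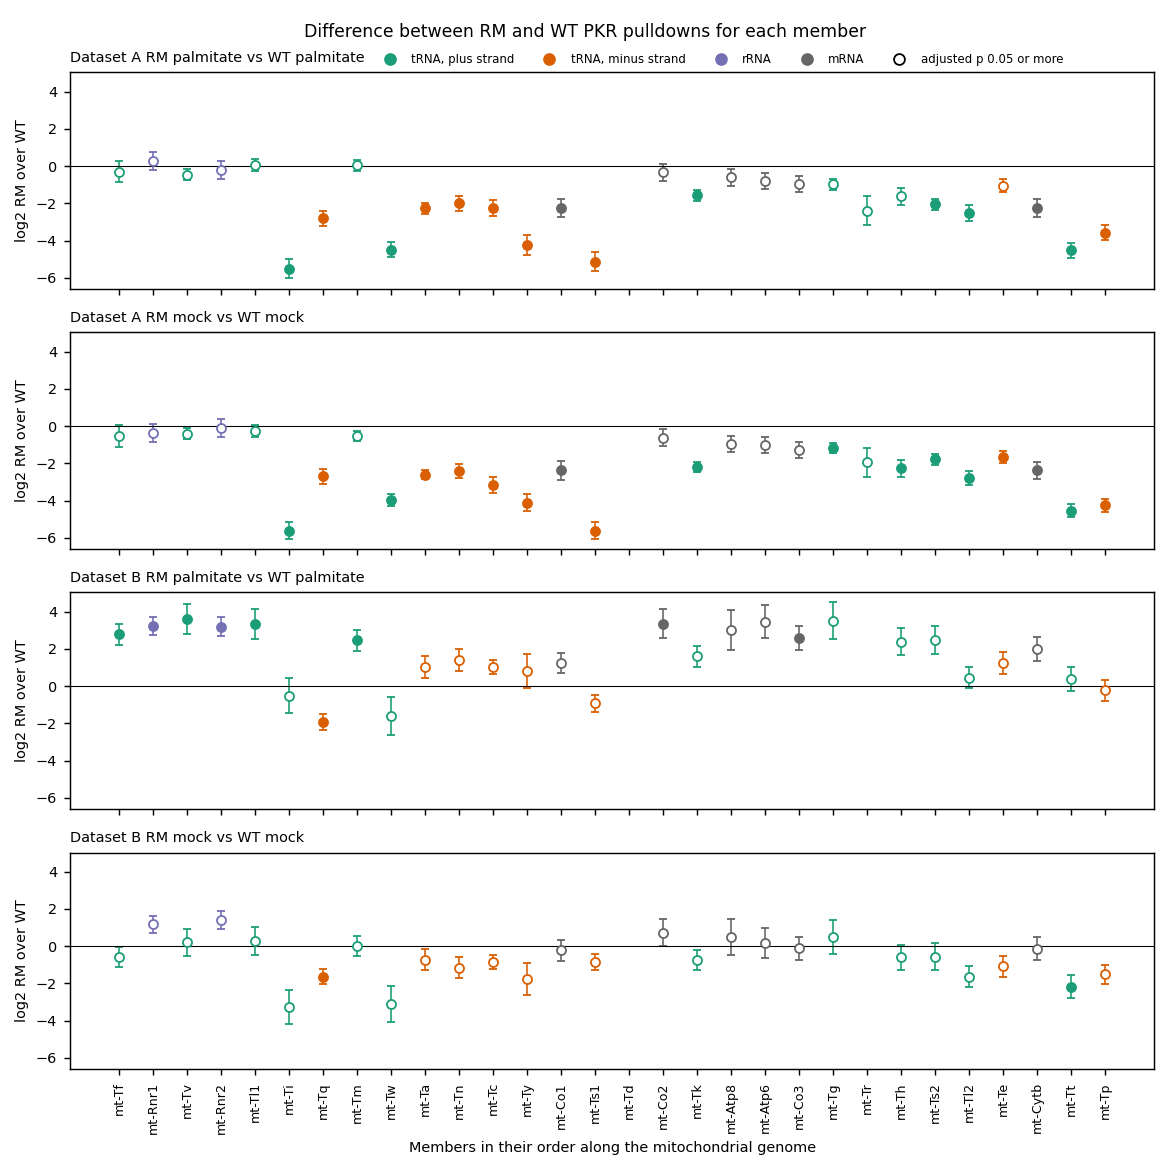
log2 fold change of RM over WT for each member, in order along the mitochondrial genome, with palmitate and with mock treatment in datasets A and B. Whiskers are standard errors, filled points passed the test and mt-Td was not tested. In A the values of mt-Ti and mt-Ts1 lie below -5 in both treatments, and those of the first 5 members and mt-Tm lie within 0.55 of 0.

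With mock treatment in dataset A, 18 of the 29 members tested were lower with RM than with WT and none was higher (edgeR's quasi-likelihood test, Benjamini-Hochberg adjusted p under 0.05). Of all features tested, 3.03% were lower and 0.715% higher. The 18 were all 8 minus-strand tRNAs, 8 of 13 plus-strand tRNAs and 2 of 6 mRNAs, and neither rRNA passed. In 22 members all RM mock libraries lay below all WT mock libraries, as in 17.5% of all features. The median log2 fold change of RM over WT was -2.22 over the members tested and -0.01 over all features. No alternative setting turned the direction of a called member, and 16 of the 18 calls held in every setting tried. mt-Tg lost its call with scaling by total counts (adjusted p = 0.0785) and without WT mock replicate 2 or RM mock replicate 2 or 3 (adjusted p = 0.0625, 0.116 and 0.0776). mt-Co1 lost its call without RM mock replicate 1 or 2 (adjusted p = 0.0555 and 0.055).

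Among the minus-strand tRNAs, mt-Ts1, which reads serine UCN codons, had the largest difference. It had 3.95, 1.59 and 1.78 CPM in the RM mock libraries, against 114, 131 and 115 CPM in the WT mock libraries of A, a log2 fold change of -5.61 ± 0.47 (SE, adjusted p = 2.83e-06). All RM mock libraries lay far below all WT mock libraries. The proline tRNA mt-Tp had 4.10, 2.32 and 2.82 CPM in RM mock, against 49.4, 59.7 and 67.5 CPM in WT mock (-4.25 ± 0.35, adjusted p = 1.49e-06). The tyrosine tRNA mt-Ty fell by 4.13 on the log2 scale, and mt-Tc, mt-Ta and mt-Tn, the cysteine, alanine and asparagine tRNAs that lie beside it, fell by 3.17, 2.60 and 2.41.

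The glutamine tRNA mt-Tq had the highest mean per length with WT in A, though its libraries overlap those of mt-Rnr2. It had 89, 57.2 and 38.5 CPM in RM mock, against 374, 391 and 434 CPM in WT mock (-2.70 ± 0.40, adjusted p = 0.000279). The glutamate tRNA mt-Te had 84.3, 73.7 and 62.6 CPM in RM mock, against 194, 250 and 257 CPM in WT mock (-1.67 ± 0.33, adjusted p = 0.00448), the smallest difference of the 8. For both tRNAs the groups did not overlap.

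The plus-strand tRNAs were split by the test. The isoleucine tRNA mt-Ti had 7.90, 5.65 and 4.45 CPM in RM mock, against 284, 338 and 275 CPM in WT mock (-5.63 ± 0.46, adjusted p = 5.56e-07). Threonine mt-Tt had 3.19, 3.33 and 3.71 CPM in RM mock, against 76.5, 84.9 and 77.5 CPM in WT mock (-4.54 ± 0.36, adjusted p = 9.75e-07). Both differences were many times the spread between libraries. Tryptophan mt-Tw fell by 3.98, leucine CUN mt-Tl2 by 2.79, histidine mt-Th by 2.28, lysine mt-Tk by 2.22, serine AGY mt-Ts2 by 1.79 and glycine mt-Tg by 1.17 on the log2 scale.

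The other plus-strand tRNAs tested had smaller values that did not pass. Valine mt-Tv had 211, 164 and 167 CPM in RM mock, against 223, 245 and 257 CPM in WT mock (-0.42 ± 0.30, adjusted p = 0.494). The libraries do not overlap, but the difference is only a little larger than its error. Leucine UUR mt-Tl1 had 124, 129 and 147 CPM in RM mock, against 220, 157 and 112 CPM in WT mock (-0.29 ± 0.32, adjusted p = 0.677). Those groups overlap. Phenylalanine mt-Tf had 3 to 12 counts in each library of A, and its value was -0.55 ± 0.60. Methionine mt-Tm gave -0.53 ± 0.28 and arginine mt-Tr, with 1 to 9 counts in each mock library, -1.95 ± 0.80.

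The rRNAs differed by less than their error in A. mt-Rnr2, the large subunit rRNA, had 6356, 7001 and 6909 CPM in RM mock, against 9070, 7070 and 5865 CPM in WT mock (-0.12 ± 0.47, adjusted p = 0.926). mt-Rnr1, the small subunit rRNA, had 2280, 3036 and 4530 CPM in RM mock, against 5003, 4295 and 3397 CPM in WT mock (-0.37 ± 0.47, adjusted p = 0.722). Groups overlap for both. mt-Tf, mt-Rnr1, mt-Tv, mt-Rnr2 and mt-Tl1 are the first 5 features of the plus strand, from position 1 to 2750, and all 5 had log2 fold changes between -0.55 and -0.12. The next member on that strand is mt-Ti, at position 3706, with the largest difference of the 29.

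Of the mRNAs, mt-Co1 and mt-Cytb fell in RM mock relative to WT mock in A. mt-Co1 had 224, 336 and 455 CPM in RM mock, against 1921, 1964 and 1416 CPM in WT mock (-2.39 ± 0.49, adjusted p = 0.00681). mt-Cytb had 41, 60 and 91.5 CPM in RM mock, against 354, 353 and 293 CPM in WT mock (-2.38 ± 0.47, adjusted p = 0.00498). No RM mock library reached a WT mock library for these 2 genes. mt-Co3 gave -1.28 ± 0.42 (adjusted p = 0.0943), mt-Atp6 -1.02 ± 0.41, mt-Atp8 -0.96 ± 0.43 and mt-Co2 -0.63 ± 0.45, none of which passed. Of the 7 complex I mRNAs on the same chromosome, 5 were lower with RM mock, with a median of -2.23.

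With palmitate in dataset A, 15 of 29 members were lower with RM than with WT and none was higher, where 2.49% of all features were lower and 0.936% higher. They were 7 of 8 minus-strand tRNAs, 6 of 13 plus-strand tRNAs, mt-Co1 and mt-Cytb. In 14 members all RM palmitate libraries lay below all WT palmitate libraries, as in 11.6% of all features. The median over members was -2.01, and these libraries are not those of the mock comparison. mt-Ti had 3.36, 3.45 and 9.39 CPM in RM palmitate, against 148, 289 and 406 CPM in WT palmitate (-5.50 ± 0.49, adjusted p = 2.55e-06). mt-Ts1 had 3.08, 0 and 3.45 CPM in RM palmitate, against 50.7, 106 and 179 CPM in WT palmitate (-5.14 ± 0.50, adjusted p = 3.88e-05). Neither tRNA had overlapping groups, and the 0 belongs to the shallowest library, without which 18 members were lower.

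mt-Rnr2 had 8034, 3844 and 9171 CPM in RM palmitate, against 7236.5, 8962 and 7958 CPM in WT palmitate (-0.20 ± 0.47, adjusted p = 0.869), and mt-Rnr1 gave 0.26 ± 0.47. The log2 values of mt-Tl1 and mt-Tm were 0.04 ± 0.33 and 0.04 ± 0.29. mt-Te, called with mock, gave -1.05 ± 0.34 (adjusted p = 0.0909). Without RM palmitate replicate 1 the count was 11, and mt-Tn, mt-Tc, mt-Co1 and mt-Cytb lost their calls (adjusted p = 0.11, 0.085, 0.0666 and 0.0615). mt-Tc also lost it without RM palmitate replicate 3 (adjusted p = 0.0658), and mt-Tk with scaling by total counts (adjusted p = 0.0589), so 10 of 15 calls held in every setting.

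Palmitate itself moved no member past the test in dataset A. With RM, 0 of 29 were called where 0.477% of all features were, 1 member had an unadjusted p under 0.05, and DESeq2 called 0. The median was 0.30, and the highest value was that of mt-Tc, 1.04 ± 0.47 (adjusted p = 0.36). With WT, edgeR and DESeq2 called 0 of 29 where edgeR called 0.335% of all features, no member had an unadjusted p under 0.05, and the median was 0.01. The difference between the palmitate effects with RM and with WT was called for no feature by edgeR or DESeq2, with 0 members and 469 features at an unadjusted p under 0.05. With RM, mt-Tq had 50.7, 69 and 47.5 CPM after palmitate and 89, 57.2 and 38.5 CPM after mock treatment in A, and the groups overlap.

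**Figure D3:**
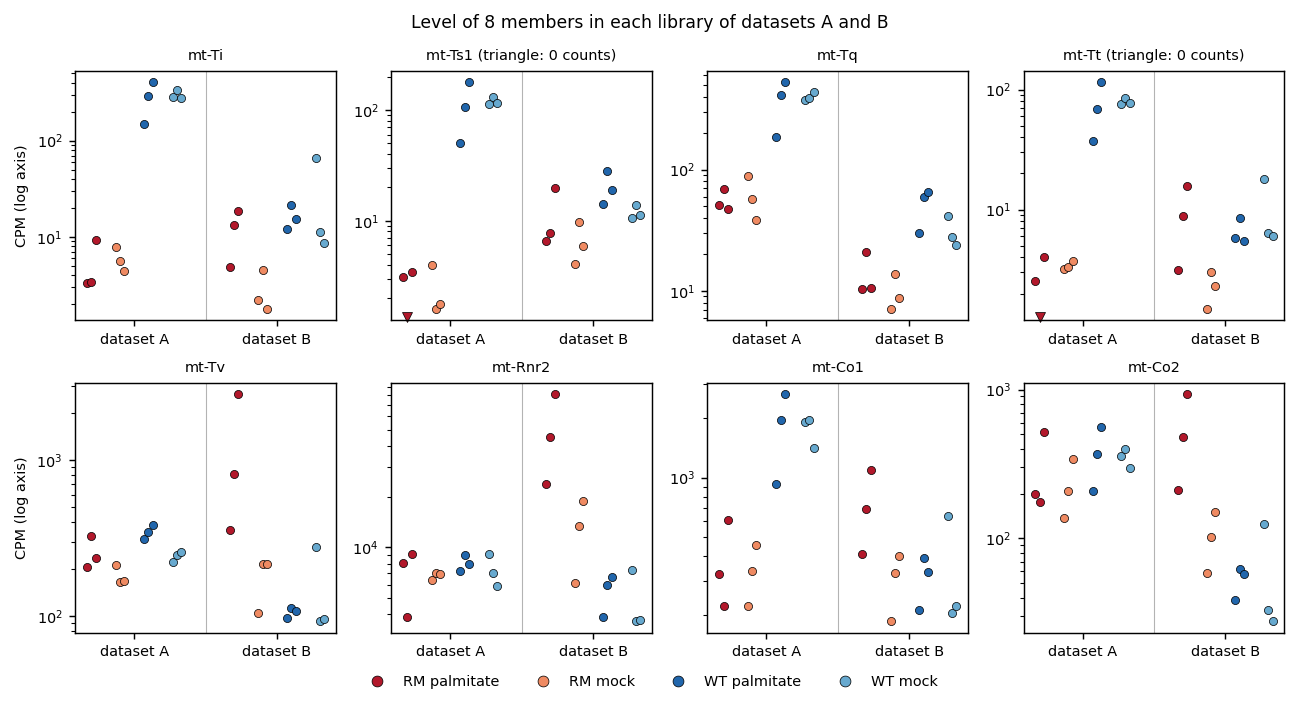
TMM-scaled CPM (log axis) of 8 members in each library of datasets A and B, by group. In A, mt-Ti, mt-Ts1, mt-Tq, mt-Tt and mt-Co1 are lower in every RM library than in every WT library, and in B the highest values of mt-Tv, mt-Rnr2, mt-Co1 and mt-Co2 belong to RM palmitate.

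In dataset B the values with RM palmitate lay above those with RM mock for all 28 members tested, and 5 passed the test. Of all features 5.08% were higher. The 5 were mt-Tf, mt-Rnr1, mt-Rnr2, mt-Tc and mt-Tk, and the median over members was 1.94. mt-Rnr1 had 18574, 44374 and 81635 CPM in RM palmitate, against 4869, 8405 and 12390.0 CPM in RM mock (2.49 ± 0.46, adjusted p = 0.00855). mt-Rnr2 had 23656, 45220.0 and 81195 CPM in RM palmitate, against 6122, 13416 and 18926 CPM in RM mock (1.96 ± 0.49, adjusted p = 0.0305). The groups did not overlap for either rRNA, and within RM palmitate the libraries spanned more than 3-fold.

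mt-Tc had 5.16, 11.6 and 15.7 CPM in RM palmitate, against 1.73, 3.55 and 2.81 CPM in RM mock (1.93 ± 0.40, adjusted p = 0.0145). mt-Tk (1.95 ± 0.55, adjusted p = 0.0422) and mt-Tf (2.37 ± 0.52, adjusted p = 0.0167) had at most 12.8 CPM in any library of B. mt-Tv had 355, 809 and 2646 CPM in RM palmitate, against 105, 215 and 217 CPM in RM mock, a value of 2.83 ± 0.78 that did not pass (adjusted p = 0.0628). The groups did not overlap for mt-Tv either. Over all members, 19 of 28 had RM palmitate libraries above all RM mock libraries, where 15.6% of all features did.

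The comparison was repeated without RM palmitate replicates 2 and 3, the libraries that stood apart. The remaining library was then taken to vary like the other groups, 0 members passed, 25 of 28 values stayed above 0 and the median was 0.78. Of the 5 called members, mt-Tk was at 1.804, mt-Tf at 1.19, mt-Rnr1 at 1.13, mt-Tc at 0.955 and mt-Rnr2 at 0.89. The values of mt-Tk, mt-Tf and mt-Tc rest on few counts. mt-Tk had 9, 8 and 3 in the RM palmitate libraries and 5, 6 and 3 in RM mock. mt-Tf had 10, 10 and 22 in RM palmitate and 6, 13 and 5 in RM mock, and mt-Tc had 18, 21 and 27 and 14, 26 and 11. Of the others, mt-Tl1 was at 1.61 and mt-Tv at 1.001, and mt-Ty, mt-Ts1 and mt-Tp were at -0.00015, -0.00073 and -0.02. The part of these libraries in the result was not tested. With 1 library left in the group, a lost call says little. The number called was 17 without RM palmitate replicate 1, 2 without replicate 2 and 0 without replicate 3, and 1, 2 and 4 without RM mock replicates 1, 2 and 3. DESeq2 called 19 members, all higher. Scaling by total counts moved the median of all features to -0.38 and called 8 members.

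**Figure D4:**
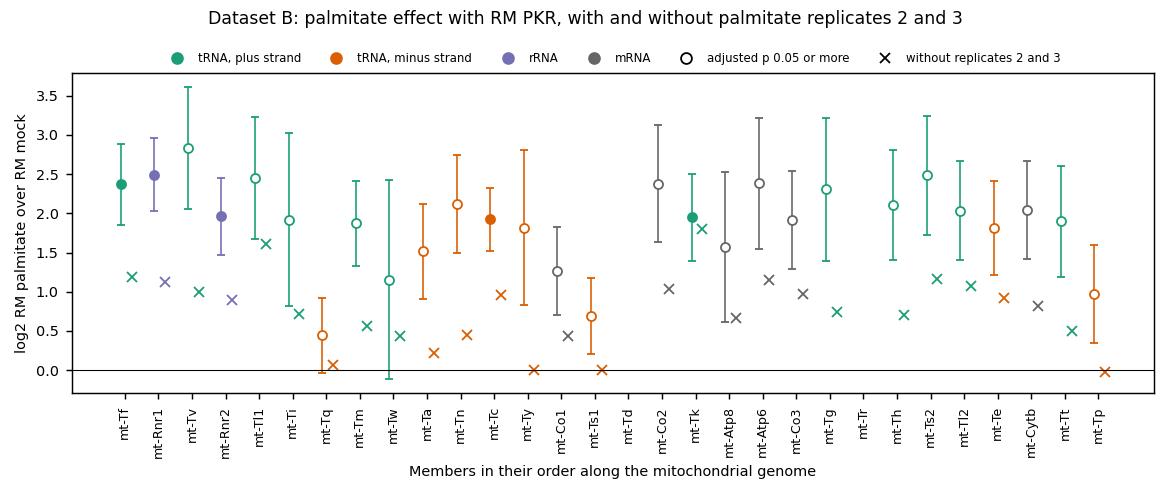
log2 fold change of RM palmitate over RM mock in dataset B for each member, in order along the mitochondrial genome. Circles with standard errors use all libraries and are filled where the test was passed, and crosses leave out RM palmitate replicates 2 and 3. All circles lie above 0, and every cross lies below its circle.

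RM palmitate was also set against WT palmitate in B, with the same RM palmitate libraries. There 8 of 28 members were higher, where 4.20% of all features were, and mt-Tq was lower, where 3.62% of all features were. The higher members were mt-Tf, mt-Rnr1, mt-Tv, mt-Rnr2, mt-Tl1, mt-Tm, mt-Co2 and mt-Co3. mt-Rnr1 had 18574, 44374 and 81635 CPM in RM palmitate, against 3691, 6044 and 5606 CPM in WT palmitate (3.24 ± 0.48, adjusted p = 0.00205). mt-Tv had 355, 809 and 2646 CPM in RM palmitate, against 96.6, 112 and 107 CPM in WT palmitate (3.59 ± 0.81, adjusted p = 0.0372). The lowest RM palmitate library was more than 3-fold above the highest WT palmitate library for both.

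mt-Co2 had 211, 478 and 931 CPM in RM palmitate, against 38.4, 62 and 58 CPM in WT palmitate (3.35 ± 0.78, adjusted p = 0.0402). mt-Tq had 10.3, 21.1 and 10.5 CPM in RM palmitate, against 30.1, 59.4 and 65.2 CPM in WT palmitate (-1.92 ± 0.44, adjusted p = 0.0348). Its groups did not overlap, in the direction opposite to mt-Co2. The 8 minus-strand tRNAs had a median of 0.92 and the 12 plus-strand tRNAs tested a median of 2.42. Summed over the strand, minus-strand tRNAs had 63.4 to 185 CPM in RM palmitate, against 78.2 to 143 CPM in WT palmitate, and plus-strand tRNAs had 720 to 4078 CPM, against 222 to 284 CPM.

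Without RM palmitate replicates 2 and 3 no member passed in this comparison either, and the value of mt-Rnr1 was 1.86, of mt-Tv 1.75 and of mt-Tq -2.31. The number called was 15 without RM palmitate replicate 1, 3 without replicate 2 and 1 without replicate 3, all higher. Without WT palmitate replicate 1, 2 or 3 there were 2 higher and 1 lower, 3 higher and 3 higher. DESeq2 called 14 higher and 1 lower. With replicate number as a block the calls were 3 higher, mt-Tf, mt-Rnr1 and mt-Rnr2, and 1 lower, mt-Tq. None of the 9 calls held in every setting. Scaling by total counts moved the median of all features to -0.36 and called 9 higher and 2 lower.

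With mock treatment in B, 2 of 28 members were lower with RM than with WT, where 6.24% of all features were, a share near that background. mt-Tq had 7.06, 13.8 and 8.70 CPM in RM mock, against 41.2, 27.7 and 23.9 CPM in WT mock (-1.64 ± 0.40, adjusted p = 0.0262). mt-Tt had 1.49, 3.001 and 2.30 CPM in RM mock, against 17.9, 6.39 and 6.02 CPM in WT mock (-2.18 ± 0.61, adjusted p = 0.0413). RM mock libraries lay below all WT mock libraries for both tRNAs. mt-Ti had 2.23, 4.501 and 1.79 CPM in RM mock, against 65.7, 11.3 and 8.69 CPM in WT mock, a value of -3.27 ± 0.92 that missed the threshold (adjusted p = 0.0504).

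All 8 minus-strand tRNAs had values below 0 in that comparison, from -1.77 for mt-Ty to -0.72 for mt-Ta, while mt-Rnr1 and mt-Rnr2 had 1.16 ± 0.44 and 1.39 ± 0.48 (adjusted p = 0.0928 and 0.0666). WT mock replicate 1 had the highest level of most members among its group, with 1130.2 CPM summed over the mRNAs, against 346 CPM in the lowest WT mock library. No call held in every setting. Without WT mock replicate 1, 2 or 3 the members called were 1 higher, 0 and 5 lower, and without RM mock replicate 1, 2 or 3 they were 1 higher, 1 lower and 0. DESeq2 called 1 higher and 5 lower, and scaling by total counts 2 higher and 4 lower.

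With WT in B, palmitate moved no member past edgeR's or DESeq2's test, where edgeR called 15.5% of all features, and no member had an unadjusted p under 0.05. Minus-strand tRNAs summed to 78.2 to 143 CPM in WT palmitate, against 70.2 to 154 CPM in WT mock, and the mRNAs to 342 to 614 CPM in WT palmitate, against 346 to 1130.2 CPM in WT mock. Those ranges overlap, and the median over members was -0.48 with all libraries and 0.38 without WT mock replicate 1. The difference between palmitate effects with RM and with WT in B was called for no member by edgeR, with 18 members and 2011 features at an unadjusted p under 0.05, and for 6 members by DESeq2, all higher. Its median over members was 2.48 with all libraries and 1.15 without RM palmitate replicates 2 and 3. Without RM palmitate replicate 1 edgeR called 6 members.

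The genotype difference itself differed between the datasets. In 1 fit of all 24 libraries, with RM over WT averaged over both treatments, the value in A minus that in B was below 0 for all 29 members tested and passed the test for 23, where 5.35% of all features were lower. The median was -2.51 over members and -0.00089 over all features. The largest was that of mt-Ts1, -4.47 ± 0.52 (adjusted p = 4.19e-05), and values of mt-Rnr1 and mt-Rnr2 were -2.25 ± 0.46 and -2.44 ± 0.48 (adjusted p = 0.00249 and 0.00157). mt-Tq (-0.98 ± 0.40), mt-Te, mt-Tw, mt-Tf, mt-Tl1 and mt-Atp8 did not pass. Without RM palmitate replicates 2 and 3 of B, 13 members passed and the median was -2.07 over the members. Dataset goes with library set and with the 2hr mark, which cannot be told apart here.

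The RM palmitate effect did not pass a test of its own difference between datasets for any member, where 0.00788% of all features passed, with 12 at an unadjusted p under 0.05 and 0 called by DESeq2. The WT palmitate effect gave 0 calls of members by either tool, where 0.189% of all features passed by edgeR, and 0 members at an unadjusted p under 0.05. Without RM palmitate replicate 1 of B, 2 members passed for the RM effect.

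Dataset C gave the strand of reads, and antisense reads of the members were far more frequent with WT than with RM. Over all 30 members, 0.190% of counts were antisense in RM palmitate (95% exact Clopper-Pearson interval 0.177 to 0.203) and 0.125% in RM mock (0.114 to 0.137), against 5.47% in WT palmitate (5.38 to 5.57) and 6.82% in WT mock (6.71 to 6.92). With 1 library a group there is no test, and intervals cover counting error only. Over all features off chrM the order was the other way, 0.973% in RM palmitate and 0.694% in RM mock, against 0.221% in WT palmitate and 0.174% in WT mock. The antisense level of the 30 members was 67.6 CPM in RM palmitate and 45.8 CPM in RM mock, against 1486 CPM in WT palmitate and 2069.8 CPM in WT mock. The summed sense level of the members was less different, 35557 and 36455 CPM in RM palmitate and RM mock, against 25670 and 28301 CPM in WT palmitate and WT mock. Most of that sum was rRNA. Sense minus-strand tRNAs had 232 and 162 CPM in RM palmitate and RM mock, against 739 and 1051 CPM in WT palmitate and WT mock. Sense plus-strand tRNAs and mRNAs were higher with RM under palmitate and lower with RM under mock treatment.

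By class, minus-strand tRNAs had the highest antisense share, 15.4% in RM palmitate and 11.9% in RM mock, against 51.0% in WT palmitate and 49.3% in WT mock. Plus-strand tRNAs had 0.213 and 0.0761% in the RM libraries, palmitate and mock, against 9.83 and 10.7% in the WT libraries. The mRNAs had 0.834 and 1.15% in the RM libraries, against 22.4 and 26.0% in the WT libraries. Antisense reads of the rRNAs were rarest, 6 beside 371288 sense counts in RM palmitate and 5 beside 340454 in RM mock, against 379 beside 172118 in WT palmitate and 572 beside 178701 in WT mock. The 7 complex I mRNAs of the same chromosome had 8.99 and 10.8% in the RM libraries, against 62.8 and 68.2% in the WT libraries.

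**Figure D5:**
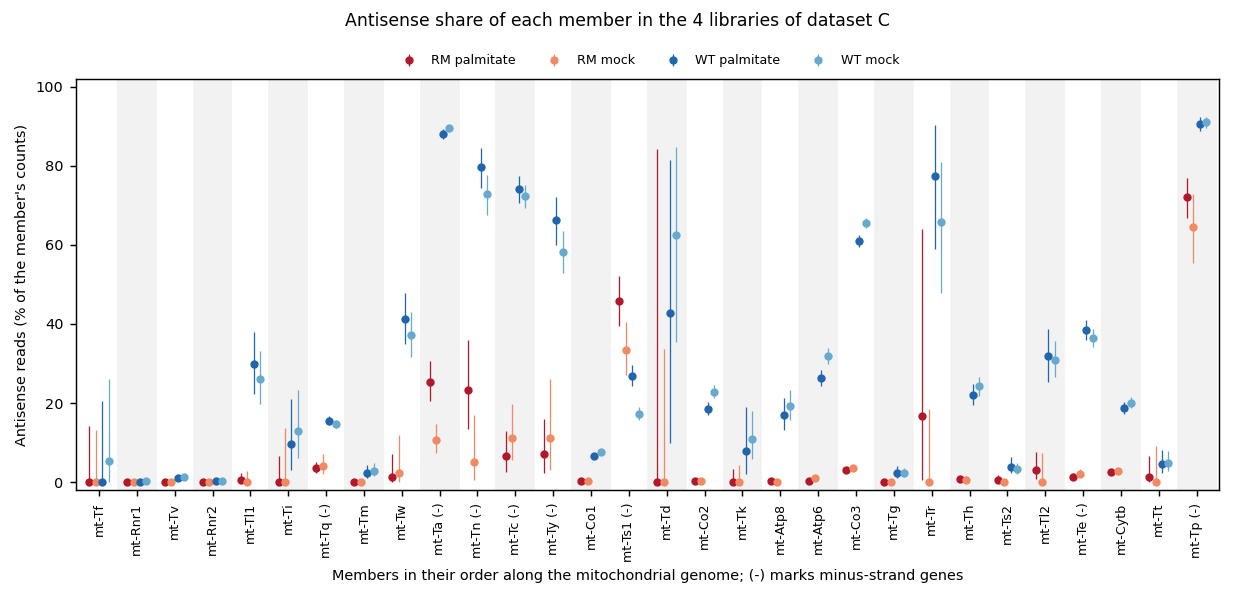
Antisense reads as a percentage of all counts of each member in the 4 libraries of dataset C, in order along the mitochondrial genome. Points are single libraries and whiskers 95% exact Clopper-Pearson intervals, which cover counting error only. The WT points lie above the RM points for nearly every member with enough counts, and mt-Ts1 is the exception.

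Of the 27 members with at least 20 counts in each of 2 libraries compared, 26 had a higher antisense share with WT than with RM, both with palmitate and with mock treatment. Their median was 0.682% in RM palmitate, against 18.6% in WT palmitate, and 0.357% in RM mock, against 20.02% in WT mock. The alanine tRNA mt-Ta, printed above in its sense, had 78 antisense and 230 sense counts in RM palmitate and 31 and 260 in RM mock, against 2676 and 361 in WT palmitate and 3436 and 404 in WT mock. Antisense reads were the minority of its counts with RM and about 9 in 10 with WT. The proline tRNA mt-Tp was mostly antisense in every library, 72.1% in RM palmitate and 64.5% in RM mock, against 90.7% in WT palmitate and 91.0% in WT mock.

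mt-Tn, mt-Tc and mt-Ty, which lie beside mt-Ta, had 6.54 to 23.3% antisense in RM palmitate and 5 to 11.2% in RM mock, against 66.3 to 79.8% in WT palmitate and 58.2 to 72.8% in WT mock. mt-Te had 1.42 and 2.10% in the RM libraries, palmitate and mock, against 38.4 and 36.5% in the WT libraries. mt-Tq had 3.47 and 4.04% in the RM libraries, against 15.5 and 14.7% in the WT libraries. mt-Ts1 alone went the other way, with 45.7% (39.5 to 52.0) in RM palmitate and 33.5% (27.0 to 40.5) in RM mock, against 27.0% (24.4 to 29.7) in WT palmitate and 17.3% (15.6 to 19.1) in WT mock. In CPM its antisense reads were still lower with RM, 10.04 and 6.63 CPM in the RM libraries, against 38.2 and 43.8 in the WT libraries.

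Among the mRNAs, mt-Co3 had the highest antisense share. It was 2.97% (2.43 to 3.597) in RM palmitate and 3.502% (2.79 to 4.33) in RM mock, against 61.0% (59.5 to 62.4) in WT palmitate and 65.5% (64.2 to 66.7) in WT mock. Antisense reads of mt-Co3 outnumbered its sense reads in both WT libraries, 2534 to 1623 and 3632 to 1916, and in neither RM library. mt-Atp6, which ends where mt-Co3 begins, had 0.328 and 1.14% in the RM libraries, against 26.3 and 31.8% in the WT libraries, and mt-Cytb had 2.68 and 2.75%, against 18.6 and 20.02%. mt-Co1 had the lowest share of the 6 with WT, 6.53% with palmitate and 7.56% with mock treatment. Of the plus-strand tRNAs, mt-Tw had 1.30 and 2.27% in the RM libraries, against 41.3 and 37.2% in the WT libraries, and mt-Tv had none, with upper bounds of 0.0919 and 0.108%, against 1.10 and 1.42%.

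Sense reads in C also differed for a subset of members. With mock treatment 21 of the 27 members had a lower sense level in RM than in WT, with a median log2 ratio of -0.83, and with palmitate 14 of 27 had, with a median of -0.01. mt-Tq had 25.8 CPM of sense reads in RM mock, against 564 CPM in WT mock, and 62.0 CPM in RM palmitate, against 422 CPM in WT palmitate. mt-Ts1 had 13.2 CPM in RM mock, against 209 CPM in WT mock, and 11.9 CPM in RM palmitate, against 104 CPM in WT palmitate. Both tRNAs are minus-strand genes and were lower with RM in every treatment. Sense mt-Rnr2 was higher with RM, 22942 CPM in RM palmitate and 22288 in RM mock, against 14954 in WT palmitate and 16305 in WT mock. mt-Ti, which had the largest difference in A, had 4.63 CPM of sense reads in RM palmitate, against 6.07 CPM in WT palmitate, and 2.47 CPM in RM mock, against 8.04 CPM in WT mock, from 25 to 60 counts a library.

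Across the 27 members, the log2 ratio of RM mock over WT mock in C, both strands summed, went with that in A, with Pearson's r = 0.752 and Spearman's rho = 0.839, and with that in B, with r = 0.732 and rho = 0.821. With palmitate the values were 0.648 and 0.739 for A, and 0.726 and 0.748 for B. These are descriptions over members of 1 genome that share libraries, not tests.

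Nuclear genes that work with these RNAs were counted from lists of subunits of complexes III (9 genes), IV (11) and V (15), of factors for mitochondrial transcription, processing and decay (30), and of mitochondrial aminoacyl-tRNA synthetases (17), which charge the tRNAs. In dataset A, no nuclear subunit of complexes III to V passed between RM and WT with either treatment. Of 15 synthetases tested, Ears2, the glutamyl synthetase (-3.03 ± 0.39, adjusted p = 5.66e-05), and Lars2, the leucyl synthetase (-2.69 ± 0.58, adjusted p = 0.00939), were lower in RM mock than in WT mock, where 3.03% of all features were lower. Whether the reads counted for Lars2 came from the mRNA of the synthetase was not tested. With palmitate Ears2 was lower with RM (-2.80 ± 0.45, adjusted p = 0.000853), and of 29 processing factors Trub2, a pseudouridine synthase, was lower (-1.41 ± 0.27, adjusted p = 0.00468). Of all features 2.49% were lower there, so 1 of 29 processing factors is near that share. No gene of these lists was higher, and no gene of them passed for palmitate itself in A.

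In dataset B, 5 of 11 nuclear subunits of complex IV, 4 of 15 of complex V and 1 of 9 of complex III were lower in RM mock than in WT mock and none was higher, where 6.24% of all features were lower, with Atp5f1 (-0.63 ± 0.12, adjusted p = 0.00359) and Cox7a2 (-0.81 ± 0.17, adjusted p = 0.00618) among them. The mitochondrially encoded mRNAs of the same complexes had a median of 0.01 there. In WT palmitate relative to WT mock, 4 of 15 subunits of complex V, 3 of 11 of complex IV and 2 of 9 of complex III were lower and none was higher, where 763 of 12466 features were lower and 1175 higher. In RM palmitate relative to RM mock, 2 subunits of complex IV and 1 of complex V were higher and 1 each of complexes III and V were lower, where 633 features were higher and 306 lower. In RM palmitate relative to WT palmitate, 1 subunit each of complexes III, IV and V was higher, and 2 of complex III and 1 of complex V were lower. Of all features, 4.20% were higher and 3.62% lower there. Of 30 processing factors, 1 was lower in RM mock than in WT mock, and 3 were higher and 1 lower in WT palmitate than in WT mock. These counts are near or below the shares of all features given above for those comparisons. Of 17 synthetases, Vars2 (0.86 ± 0.21, adjusted p = 0.0118) and Tars2 (0.64 ± 0.18, adjusted p = 0.0269) were higher in RM mock than in WT mock. The share of all features higher there is not given, so the count says nothing about synthetases as a group. Vars2 was higher in WT palmitate than in WT mock (0.83 ± 0.21, adjusted p = 0.0138). That call, 1 of 17, is not above the share of all features, 1175 of 12466. Cars2 was lower with RM palmitate than with RM mock (-1.16 ± 0.31, adjusted p = 0.0374), where 306 of 12466 features were lower.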

How the data were processed

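Positions and counts are those of the deposited tables, which the authors made as whole-number counts per feature and library for datasets A and B and as counts per strand for dataset C. The submitters' processing notes name CASAVA 1.7.0 and 1.8.2, Novoalign and the build mm9. The version of Novoalign, the counter or its use of strand is not given in the sources used here. In dataset C, 11466 features of the RM table and 14045 of the WT table had no value listed and were taken as 0. Another 52 columns of values per sample were not used. Of 29777 Ensembl identifiers, 25755 matched GENCODE M21, whose transcript sequences (GRCm38) gave the printed sequences. Positions are counted from 1.

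Groups were taken from the labels. Features were kept by filterByExpr and scaled by TMM, and edgeR's robust quasi-likelihood test (two-sided) gave p-values that were adjusted by Benjamini-Hochberg over all features tested, with a threshold of 0.05. Versions were R 4.3.3, edgeR 4.0.16 and limma 3.58.1. The procedure was tested on simulated data first. Each dataset was fitted whole (12 libraries, 1 mean a group), and differences between datasets came from all 24 libraries together, with a mean for each of 8 groups. This left 11328 features in A, 12466 in B and 12683 jointly. Of the 30 members, 29 were tested in A and jointly, without mt-Td, and 28 in B, without mt-Td and mt-Tr. Class sums, dataset C and correlations over members got no test. No 2 replicates agreed within sampling noise (chi-square per degree of freedom at least 4.85). CPM are TMM-scaled in A and B and per 1e6 of all counts in C and for the cell type markers. Alternatives were total counts, RLE factors, DESeq2 1.42.0, no filter, a replicate block and libraries left out.

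All 30 members could be named. From each list of nuclear genes at most the 3 with the smallest p per comparison among those past the threshold could be named. The members, lists and tests were chosen with earlier results of these data known.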

Additional observations from a re-analysis of the deposited data

Results flagged for a closer look

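The difference between RM and WT differed between datasets A and B for 23 members by a test of the difference itself (edgeR's quasi-likelihood test in a fit of all 24 libraries, adjusted p under 0.05). Each value below is the log2 fold change of RM over WT in A minus that in B, averaged over both treatments, and all are below 0. Minus-strand tRNAs had -4.47 (mt-Ts1), -3.69 (mt-Ty), -3.01 (mt-Tp), -2.79 (mt-Tc), -2.58 (mt-Ta) and -2.30 (mt-Tn). Plus-strand tRNAs had -3.67 (mt-Ti), -3.60 (mt-Tt), -3.35 (mt-Tr), -3.08 (mt-Tg), -2.89 (mt-Th), -2.87 (mt-Ts2), -2.34 (mt-Tv), -2.29 (mt-Tk), -2.03 (mt-Tl2) and -1.47 (mt-Tm). The rRNAs had -2.44 (mt-Rnr2) and -2.25 (mt-Rnr1). The mRNAs had -3.23 (mt-Cytb), -2.81 (mt-Co1), -2.70 (mt-Atp6), -2.51 (mt-Co2) and -2.33 (mt-Co3).

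Of these 23 calls, 13 held in every setting tried. mt-Ti, mt-Tm, mt-Tn, mt-Ty, mt-Co2, mt-Atp6, mt-Co3, mt-Tr, mt-Tl2 and mt-Tp lost theirs without RM palmitate replicates 2 and 3 of B, with values that stayed below 0. These were -3.17 for mt-Tr, -3.08 for mt-Ti, -2.84 for mt-Ty, -2.56 for mt-Tp, -2.10 for mt-Atp6, -1.88 for mt-Co3, -1.87 for mt-Co2, -1.59 for mt-Tl2, -1.53 for mt-Tn and -0.84 for mt-Tm.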

How the results depend on the processing

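No called member changed direction under any alternative. Members called moved by over 1.5 times as follows. For RM palmitate over RM mock in B the 5 calls became 8 with total counts, 19 with DESeq2 and 0 without RM palmitate replicates 2 and 3. For RM palmitate over WT palmitate in B the 9 became 15 with DESeq2, 4 with the replicate block and 0 without those libraries. For RM mock over WT mock in B the 2 became 6 with total counts or DESeq2, 1 with the replicate block and 0 with no filter. For the B interaction 0 became 1 with total counts or no filter and 6 with DESeq2. With no filter, 1 member was called for RM palmitate over RM mock in A and 1 for its A minus B difference. The A minus B genotype difference had 13 calls without RM palmitate replicates 2 and 3 of B, against 23 with them. The causes were not tested.

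Leaving out 1 library at a time gave 0 to 17 calls for RM palmitate over RM mock, 1 to 15 for RM palmitate over WT palmitate, 0 to 5 for RM mock over WT mock and 0 to 6 for the interaction in B. It gave 16 to 18 calls for RM mock and 11 to 19 for RM palmitate over WT in A, 20 to 28 for the A minus B genotype difference and 0 to 2 for the A minus B palmitate effect with RM.

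Replicate numbers are shared between groups, and the main fits did not treat them as pairs. Deviations of same-numbered libraries correlated by 0.00982 on average in A and 0.0338 in B, with 4 of 18 pairs over 0.1 in each. For libraries with different numbers the averages were -0.00525 in A and -0.0173 in B, with 5 and 4 of 36 pairs over 0.1. These correlations cannot show whether libraries were prepared in pairs. With the replicate block, members called were otherwise 19 and 17 for RM over WT in A with mock and palmitate, 5 for RM palmitate over RM mock in B and 21 for the A minus B genotype difference.

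With total counts the median of all features was 0.18 for RM mock and 0.39 for RM palmitate over WT in A, -0.17 for palmitate with WT in A, and 0.48 for the A minus B genotype difference. The summed mRNAs gave -0.27 and the plus-strand tRNAs -0.58 for WT palmitate over WT mock in B, and 0.54 and 0.22 without WT mock replicate 1. Summed rRNA in A under palmitate, RM over WT, gave -0.04 and, with total counts, 0.37. Depth limits mt-Td, mt-Tf and mt-Tr most, with few counts in any library, and mt-Tk in B, with 3 to 13 counts in a library.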
